A study of Mus musculus with 6 samples.

Results

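The genes of 3 conjugation enzyme families, the glutathione S-transferases (Gst), the UDP-glucuronosyltransferases (Ugt) and the cytosolic sulfotransferases (Sult), were examined in newborn mouse liver. Members were taken by gene symbol: Gst genes of the alpha, mu, pi, theta, kappa, omega and zeta classes, genes of Ugt families 1 to 3, and every numbered Sult gene. The rule found 52 genes among 47048 named genes and unnamed probes, of which 21 were Gst, 14 Ugt and 17 Sult genes. They were read by 73 probes, and for each gene the probe brightest on average over the 6 arrays was used. Of the 52 genes, 47 were bright enough to be tested, among 30924 features tested in all.

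Conjugation joins a water-soluble group to drugs, steroids, bile acids, bilirubin and products of lipid oxidation, so that they can leave the cell by membrane exporters. Glutathione S-transferases add glutathione, UDP-glucuronosyltransferases add a sugar from a UDP donor, and sulfotransferases add sulfate from the donor PAPS. Hepatocytes are a main site of all 3 reactions, and many of these genes change with birth, sex and hormones in rodents.

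Livers came from 3 wild-type mice and from 3 mice lacking Cugbp1, the gene of an RNA-binding protein now named Celf1, all killed at 3 days of age. Agilent one-colour arrays were used, 1 per liver, with Cy3-labelled total RNA. All groups shared the age and the tissue, and strain, litter and the kind of deletion are not given in the sources used here. Values are log2 signals after scaling of each array to a common 75th percentile, which lay between 350.2 and 534.8 in the raw signal. Celf1 itself read 12.04, 11.84 and 11.78 on wild-type arrays 1, 2 and 3, and 9.02, 8.61 and 8.94 on knockout arrays 1, 2 and 3, a difference of -3.03 ± 0.22 (SE) with adjusted p = 0.0555 by limma. All 3 knockout arrays were thus far below all 3 wild-type arrays, as their labels state.

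Some arrays stood apart from the rest. The growth label calls the mice male, yet the Y-linked transcript Ddx3y read 10.66 on wild-type 1 and 10.67 on knockout 1 and no more than 1.88 on the other 4 arrays. Xist, the transcript of the inactive X chromosome, read 10.05 to 10.82 on those 4 and at most 2.10 on the first pair. Knockout 2 carried transcripts of the exocrine pancreas: the median of 9 tested markers lay 7.11 above the wild-type mean, their summed signal was 209240 against 4111 to 12689 on the other arrays, and the trypsinogen gene Try5 read 15.15 against at most 6.03 elsewhere. Of 9 tested erythroid markers, the median stood at -2.36 relative to the wild-type mean on knockout 2, with a summed signal of 511690 against 1272000 to 1564100. Skeletal muscle markers were high on wild-type 3, knockout 2 and knockout 3, with summed signals of 90442, 63606 and 405270 against 1051 to 1272 on the other 3 arrays. All 10 hepatocyte markers were detected, and albumin (Alb) read between 18.60 and 19.34. Of these markers 8 were lower in knockout by value, with a median of -0.31, and Tat and Pck1 ranged from 9.43 to 13.10 and from 11.91 to 16.59 over the arrays. On knockout 2 their median lay 0.014 above the wild-type mean, with single markers on either side. What part these signals play in any difference below was not tested, and in whole liver fewer cells of a type cannot be told apart from less RNA per cell.

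The upstream sequences of 2 gene clusters are shown first, because the genes within each were high or low on shared arrays. In mouse the Sult2a genes lie together on chromosome 7 and the Ugt2 genes on chromosome 5. The 150 bases before the transcript start of 3 Sult2a genes were taken from RefSeq on build GRCm38.p6 and are written in the direction of transcription. Capitals mark GTTAAT, part of the motif of the hepatocyte factor HNF1, and TATAAA, the TATA box.

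Sult2a3, chr7:14123049-14123198, minus strand: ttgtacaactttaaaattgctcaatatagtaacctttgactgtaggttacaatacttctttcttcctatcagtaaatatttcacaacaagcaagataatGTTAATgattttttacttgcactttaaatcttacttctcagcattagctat
Sult2a4, chr7:13989589-13989738, minus strand: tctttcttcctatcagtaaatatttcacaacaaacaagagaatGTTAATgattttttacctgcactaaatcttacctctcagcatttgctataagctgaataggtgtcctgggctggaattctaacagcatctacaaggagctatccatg
Sult2a6, chr7:14254871-14255020, minus strand: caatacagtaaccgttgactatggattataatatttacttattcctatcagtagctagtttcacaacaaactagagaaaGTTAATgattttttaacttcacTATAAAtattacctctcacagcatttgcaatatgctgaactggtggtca

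GTTAAT, searched on both strands of the window from 250 bases before to 50 bases after the start, was present in all 3 Sult2a windows, against 7.1% of 32851 windows of the whole table. Over all members with a window it was found in 10 of 44 genes. TATAAA was found in 9 of 44 members against 13.6% of windows. The Sult2a windows resembled each other, with 70.7% identical aligned positions between Sult2a3 and Sult2a6 and 65.6% between Sult2a4 and Sult2a6, so their shared motif is not 3 separate observations.

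For the Ugt2b genes the capitals mark AGGTCA, the core motif of nuclear receptors, in the same 150 bases before the start on GRCm38.p6.

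Ugt2b5, chr5:87140341-87140490, minus strand: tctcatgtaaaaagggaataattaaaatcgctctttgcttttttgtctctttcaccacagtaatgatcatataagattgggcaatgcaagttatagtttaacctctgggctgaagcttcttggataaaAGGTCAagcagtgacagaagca
Ugt2b36, chr5:87092556-87092705, minus strand: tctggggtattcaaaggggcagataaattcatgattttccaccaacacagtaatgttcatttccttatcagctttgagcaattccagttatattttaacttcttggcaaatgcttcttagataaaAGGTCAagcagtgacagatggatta
Ugt2b37, chr5:87254789-87254938, minus strand: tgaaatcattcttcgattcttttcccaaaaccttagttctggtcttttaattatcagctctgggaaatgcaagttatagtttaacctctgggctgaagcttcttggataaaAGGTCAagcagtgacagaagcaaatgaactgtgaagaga
Ugt2b38, chr5:87424204-87424353, minus strand: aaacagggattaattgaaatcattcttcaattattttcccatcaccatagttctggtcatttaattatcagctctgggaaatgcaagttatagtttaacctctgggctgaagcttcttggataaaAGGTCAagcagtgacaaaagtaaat

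AGGTCA was found on either strand in 5 of 9 Ugt2 windows, those of Ugt2b5, Ugt2b35, Ugt2b36, Ugt2b37 and Ugt2b38, against 16.3% of all windows. It was present in 9 of 44 members overall. Ugt2b37 and Ugt2b38 were identical at 86.9% of aligned positions and Ugt2b38 and Ugt2b5 at 84.2%, so the matches of these 3 genes are those of near copies, while the window of Ugt2b36 was 63.9% and that of Ugt2b35 57.7% identical to that of Ugt2b38. The core of the antioxidant response element, TGACNNNGC, was found in 3 of 44 members, the glutathione S-transferase genes Gsta3, Gstm5 and Gstm7, against 12.4% of all windows. These matches describe letters in a window and say nothing of what binds there. Probe sequences were not used here, and genes as alike as the Sult2a, Ugt2b, Gsta1 and Gsta2, Gstp1 and Gstp2, and Gstm genes may share signal on the array.

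No conjugation enzyme gene passed the test between the genotypes. At an adjusted p under 0.05 by limma, 0 of the 47 tested genes and 1 of all features (0.00323%) were called, and every member had an adjusted p of 1.00. At an unadjusted p under 0.05 there was 1 member, Gsta4, against 2.98% of all features. With the replicate number as a block this count was 5 of the 47 members and 1577 of the 30924 features, still with 0 past the adjusted threshold. The genotypes were separate, with knockout higher, on 1 member, again Gsta4, and with knockout lower on 0; among all features the groups were separate on 6.71%, with knockout higher on 3.53% and lower on 3.18%. An exact two-sided permutation test of 3 arrays against 3 cannot give less than p = 0.1.

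By value, 31 tested members were higher and 16 lower in knockout, with a median difference of 0.28, while the median over all features was -0.0024 and 50.4% of them were lower. Of the tested members, 3 had passed on the knockout arrays alone and were higher there. Over the 44 detected on all 6 arrays the median was 0.21, with 28 higher and 16 lower. The direction of these counts followed array knockout 2, which was the highest of the 6 arrays for 31 of 47 members (66.0%) but for 20.8% of all features. Without knockout 2 the members' median was 0.025, with 24 higher and 23 lower. Over the 44 detected on all 6 arrays it was then -0.003, with 22 higher and 22 lower. Without knockout 1, knockout 3 or wild-type 2 the median of all tested members was 0.75, 0.61 and 0.54, and with array weights 0.016. Leaving out wild-type 3 instead lowered this median, which kept its sign. The median without wild-type 1 also kept its sign, and its value is not given here. Without any scaling 10 members were lower, while the median of all features itself moved to 0.11. Wild-type 3 was the lowest array for 21 of the 47 (44.7%), against 24.1% of all features. Within same-numbered arrays the median member differed by -0.41 in pair 1, 1.07 in pair 2 and 0.33 in pair 3.

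**Figure D1:**
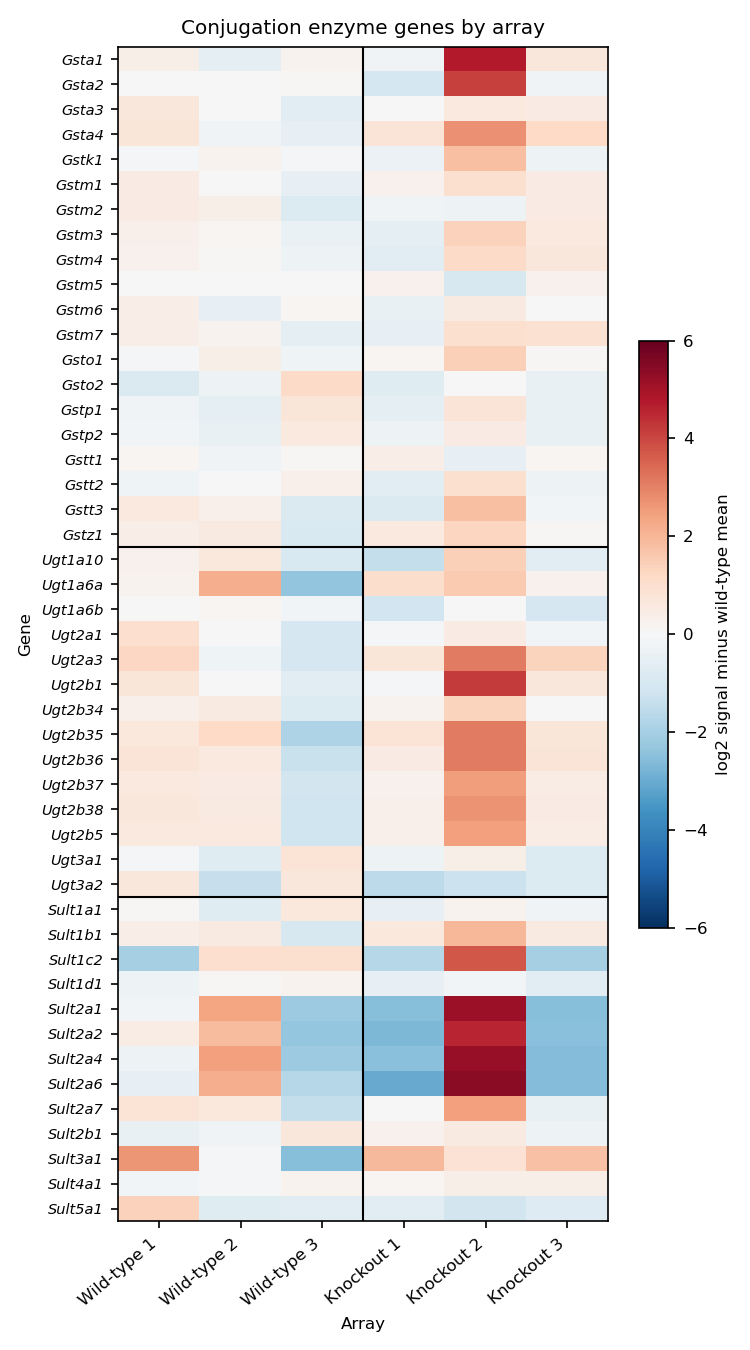
Each row is 1 of the 47 tested conjugation enzyme genes and each column 1 array; colour gives the log2 signal minus the gene's mean over the 3 wild-type arrays. Horizontal lines part the Gst, Ugt and Sult genes. Knockout 2 is the highest array for 31 of the 47 genes. Sult2a1, Sult2a2, Sult2a4 and Sult2a6 are low on knockout 1 and 3 but high on knockout 2 and wild-type 2, while Sult2a7 is lowest on wild-type 3.

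Among the glutathione S-transferases the alpha class gave the largest differences by value. Gsta4 conjugates 4-hydroxynonenal, a product of lipid peroxidation. Its log2 signal was 8.71, 7.77 and 7.50 on wild-type arrays 1, 2 and 3 and 8.78, 10.73 and 9.19 on the knockout arrays. The groups did not overlap, although knockout 1 lay just above wild-type 1. Knockout exceeded wild-type by 1.57 ± 0.57 (SE), 2.97-fold (adjusted p = 1.00, limma). Without knockout 2 the difference of Gsta4 was 0.99.

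Gsta1 and Gsta2, closely related alpha-class genes on chromosome 9, were set apart on a single array. Gsta1 read 5.56, 4.67 and 5.46 in wild-type and 5.03, 9.98 and 5.91 in knockout. On knockout 2 it was 16.8-fold above the next highest array, while the other 5 arrays stayed between 4.67 and 5.91. Gsta2 read 6.89, 6.91 and 7.0 in wild-type and 5.88, 11.05 and 6.71 in knockout, again with knockout 2 alone far above the others (16.5-fold over the next). The differences were 1.74 ± 1.21 for Gsta1 and 0.95 ± 1.25 for Gsta2 (SE), and 0.24 and -0.64 without knockout 2.

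Gsta3, the alpha-class enzyme that protects mouse liver from aflatoxin epoxide, lies on chromosome 1 apart from the other 3. It read 16.46, 15.79 and 15.09 in wild-type and 15.82, 16.35 and 16.28 in knockout. Its groups overlapped, knockout 2 was not the highest array, and its means of 15.78 ± 0.68 and 16.15 ± 0.29 (SD, n = 3 per genotype) differed by 0.37 ± 0.38 (SE). A second probe differed by 0.41.

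The mu-class genes, 7 neighbours on chromosome 3 whose enzymes conjugate many electrophiles, had a median difference of 0.40, with 5 higher and 2 lower, and a median of 0.14 without knockout 2. Gstm1, a main hepatic member, read 13.61, 13.12 and 12.62 in wild-type and 13.39, 14.07 and 13.61 in knockout. Its difference was 0.58 ± 0.33 (SE) or 1.49-fold, from 13.12 ± 0.49 to 13.69 ± 0.35 (SD, n = 3 each), and a second probe gave 0.54. Knockout 1 lay below wild-type 1, so the groups overlapped. Gstm5 ran the other way on knockout 2, with 12.11, 12.12 and 12.16 in wild-type and 12.39, 11.15 and 12.40 in knockout. Knockout 1 and 3 of Gstm5 were above all wild-type arrays and knockout 2 below all of them, so that its difference of -0.15 became 0.26 without knockout 2. Gstm2, Gstm3, Gstm4, Gstm6 and Gstm7 differed by -0.015 to 0.49 on their brightest probes. Second probes of Gstm3 and Gstm4 gave 1.64 and 0.02 where the brightest gave 0.49 and 0.40.

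In the theta class Gstt1, which conjugates small halogenated compounds, read 15.06, 14.74 and 15.03 in wild-type and 15.32, 14.44 and 15.05 in knockout, a difference of -0.0045 ± 0.29 (SE) that turned to 0.064 with quantile scaling. Knockout 2 was its lowest array. Gstt2 read 11.76, 11.98 and 12.31 in wild-type and 11.34, 12.98 and 11.69 in knockout. Its difference was -0.015, or 0.10 without scaling, with knockout 1 and 3 below every wild-type array and knockout 2 above. Gstt3 differed by 0.25, or -0.53 without knockout 2, and Gstt4 was too dim to test, at 1.25 to 2.75 on all arrays.

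The pi-class genes Gstp1 and Gstp2, whose adult hepatic level is known to be higher in male than in female mice, were read alike. Gstp2 gave 16.01, 15.72 and 16.76 in wild-type and 15.84, 16.64 and 15.73 in knockout. Wild-type 3 and knockout 2 were its high arrays, and its difference of -0.097 ± 0.38 (SE) turned to 0.074 with quantile scaling. Gstp1 differed by -0.082 ± 0.48, or 0.033 without scaling, with the same arrays high. The part of sex in these values was not tested.

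The remaining classes have 1 or 2 members each. Gstz1, which isomerises maleylacetoacetate in tyrosine breakdown, read 14.70, 14.84 and 13.37 in wild-type and 14.89, 15.60 and 14.38 in knockout, a difference of 0.66 ± 0.49 (SE). Wild-type 3 was its lowest array and knockout 2 its highest. Gsto1, an omega-class enzyme that reduces dehydroascorbate, read 13.50, 13.92 and 13.31 against 13.69, 15.02 and 13.64. Knockout 2 alone left the wild-type range, and the difference of 0.54 was 0.08 without it. Gstk1, the kappa-class enzyme of mitochondria and peroxisomes, read 11.18, 11.53 and 11.22 against 10.95, 13.09 and 11.00. Knockout 1 and 3 lay below every wild-type array of Gstk1 and knockout 2 above, so that a difference of 0.37 turned to -0.33 without knockout 2. Gsto2 differed by -0.38 ± 0.53, with wild-type 3 as its high array at 7.01.

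Over the 20 tested Gst genes 13 were higher and 7 lower by value, with a median of 0.37, or 0.058 without knockout 2. The alpha class had a median of 1.26 with all 4 genes higher, or 0.26 without knockout 2.

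**Figure D2:**
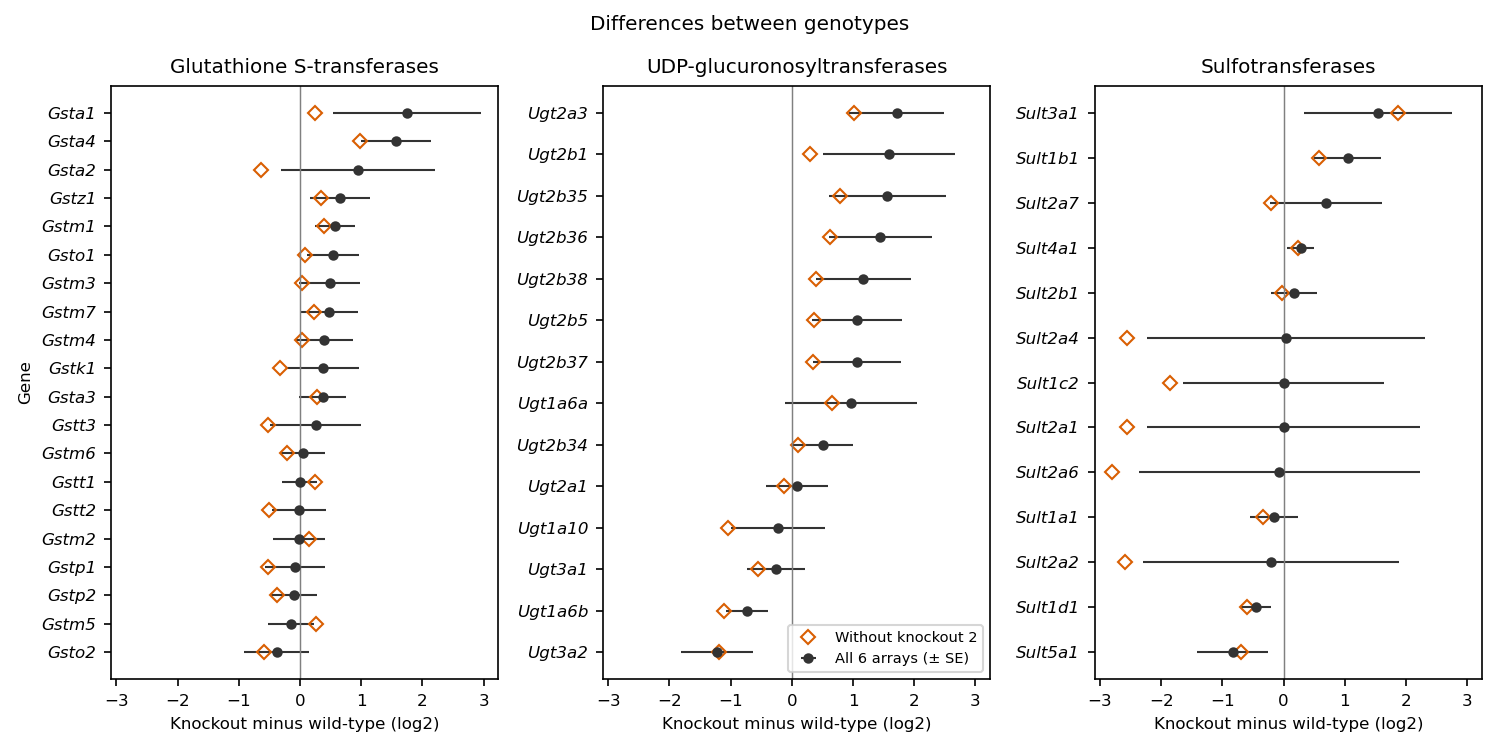
Filled circles give the knockout minus wild-type difference in log2 signal of each tested gene with its standard error from the fit over all features, and open diamonds the difference of means without knockout 2. For Sult2a1, Sult2a2, Sult2a4 and Sult2a6 the circles lie between -0.20 and 0.04 with wide errors and the diamonds between -2.80 and -2.56.

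The UDP-glucuronosyltransferases did not all go the same way. All 9 Ugt2 genes, which lie together on chromosome 5, were higher in knockout by value, with differences from 0.08 to 1.72 and a median of 1.17. None passed the test, and the groups overlapped on each of the 9. A pair of arrays framed this pattern: wild-type 3 was the lowest for 9 of 9 Ugt2 genes and knockout 2 the highest for 8 of 9, the exception being Ugt2a1. Without knockout 2 the median was 0.37, with 8 of 9 higher. Within pairs the median Ugt2 gene differed by -0.35, 2.01 and 1.61 in pairs 1, 2 and 3.

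Ugt2b5, one of the main steroid-conjugating forms of mouse liver, shows the pattern. It read 11.59, 11.55 and 9.80 in wild-type and 11.29, 13.43 and 11.41 in knockout. Wild-type 1 and 2 and knockout 1 and 3 lay between 11.29 and 11.59, wild-type 3 was 2.82-fold below the next lowest array, and knockout 2 was 3.59-fold above the next highest. Means were 10.98 ± 1.02 for wild-type against 12.04 ± 1.20 for knockout (SD, n = 3 per genotype), which differ by 1.06 ± 0.73 (SE).

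Its neighbours in the cluster had the same high and low arrays. Ugt2b38 read 12.12, 11.99 and 10.28 in wild-type and 11.77, 14.17 and 11.94 in knockout, a difference of 1.17 ± 0.78 (SE). Ugt2b36 read 10.29, 10.12 and 8.20 against 10.02, 12.64 and 10.29, and Ugt2b35 read 9.09, 9.62 and 6.59 against 9.25, 11.54 and 9.18. For both, wild-type 3 was low and knockout 2 high, while knockout 1 and 3 were close to wild-type 1 and 2. Their differences were 1.45 ± 0.85 and 1.56 ± 0.96 (SE). Ugt2b37 gave 1.06 ± 0.72.

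Ugt2b1 and Ugt2b34 have less similar upstream windows but shared the high array. Ugt2b1 read 6.91, 6.16 and 5.52 in wild-type and 6.12, 10.37 and 6.86 in knockout. Knockout 2 was 11.0-fold above the next array, and the difference of 1.59 ± 1.08 (SE) was 0.29 without it. Ugt2b34 read 13.34, 13.57 and 12.22 against 13.25, 14.39 and 13.04, a difference of 0.52 ± 0.49.

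Ugt2a3, whose human counterpart conjugates bile acids, had the largest Ugt difference. It read 7.98, 6.45 and 5.72 in wild-type and 7.43, 9.82 and 8.04 in knockout. Knockout 2 and 3 lay above all wild-type arrays and knockout 1 below wild-type 1. The difference was 1.72 ± 0.78 (SE), 3.28-fold (adjusted p = 1.00, limma), and 1.02 without knockout 2. Ugt2a1, a form known from the olfactory lining, differed by 0.08 ± 0.51.

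The other Ugt genes were mixed by value: of the 3 Ugt1 genes 1 was higher and 2 lower, and both Ugt3 genes were lower. Ugt1a6b, a form that conjugates planar phenols, read 15.78, 15.89 and 15.62 in wild-type and 14.59, 15.75 and 14.74 in knockout. Knockout 1 and 3 lay below every wild-type array and knockout 2 among them. The difference was -0.74 ± 0.34 (SE), or -1.10 without knockout 2, and a second probe gave -0.32. Ugt1a10 read 6.40, 6.77 and 5.23 against 4.71, 7.55 and 5.47, a difference of -0.22 ± 0.77, with 0.25 on a second probe. Ugt1a6a passed on the knockout arrays alone and read 4.35, 6.33 and 1.80 in wild-type, a spread as wide as its range in all 6 arrays. In knockout it read 5.24, 5.74 and 4.40. It was higher by 0.97 ± 1.07 (SE), or 0.66 without knockout 2, the direction of the Ugt2 genes. Ugt1a transcripts differ in their first exon and share the rest, and the position of each probe was not used here, so the 3 values may not belong to separate forms.

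Ugt3a2, whose human counterpart uses sugars other than glucuronic acid, had the lowest difference of all members. It read 10.52, 8.47 and 10.55 in wild-type and 8.29, 8.57 and 9.02 in knockout. All knockout arrays lay below wild-type 1 and 3, but wild-type 2 fell among them. The difference was -1.22 ± 0.59 (SE), 0.43-fold (adjusted p = 1.00, limma), and -0.36 on the other Ugt3a2 probe. Ugt3a1 read 7.24, 6.60 and 8.13 against 7.04, 7.68 and 6.50, a difference of -0.25 ± 0.47.

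**Figure D3:**
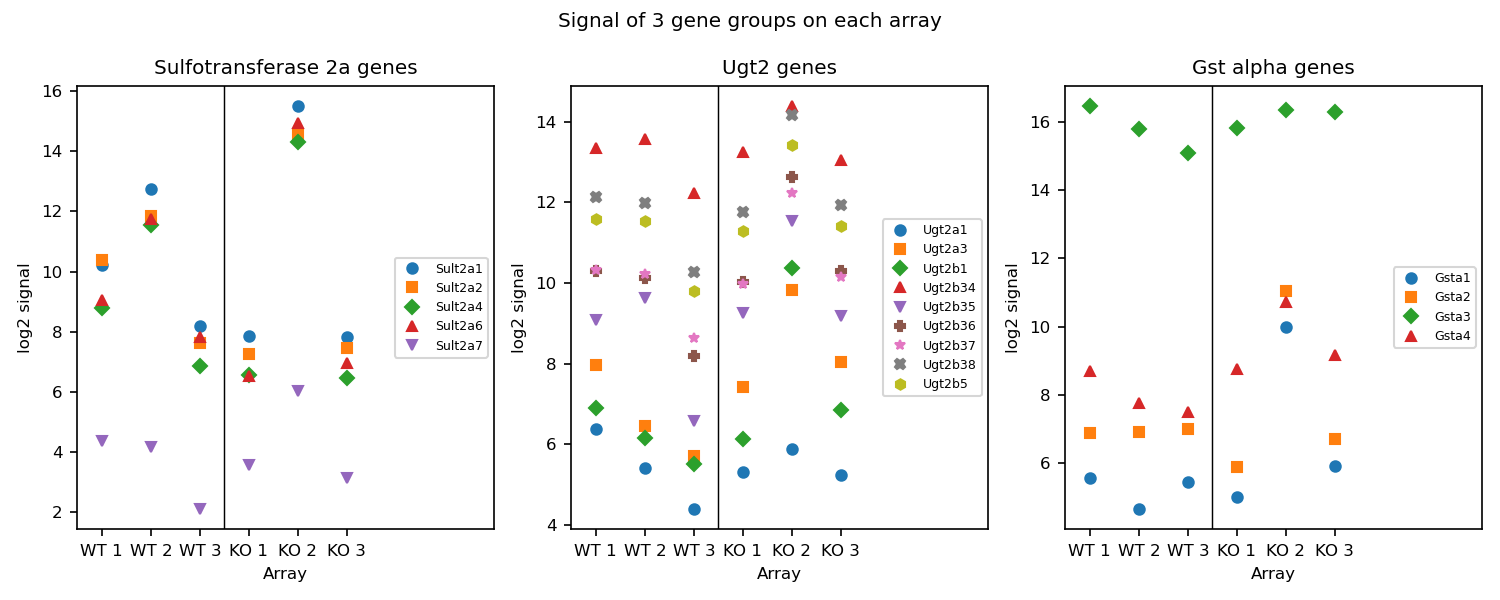
Log2 signal of each tested Sult2a, Ugt2 and Gsta gene on the 3 wild-type and 3 knockout arrays; 1 symbol per gene, and heights of different genes are not comparable because each has its own probe. Of the Sult2a genes, 4 have their lowest signal between 6.46 and 7.83 and their highest above 14. All Ugt2 genes are lowest on wild-type 3, and Gsta1 and Gsta2 leave their range on knockout 2.

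The sulfotransferases held the widest spread within a genotype. Sult2a enzymes sulfate dehydroepiandrosterone and other hydroxysteroids and bile acids, and in adult mice they are known for higher levels in females. Sult2a1 read 10.23, 12.74 and 8.21 in wild-type and 7.84, 15.50 and 7.83 in knockout. It was thus high on knockout 2, intermediate on wild-type 2, and lower on knockout 1 and 3 than on any wild-type array. Both genotypes averaged 10.39, with SDs of 2.27 for wild-type and 4.43 for knockout (n = 3 per genotype) and an SE of 2.22 on the difference.

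Sult2a2, Sult2a4 and Sult2a6 were likewise highest on knockout 2, followed by wild-type 2, 1 and 3, with knockout 1 and 3 below these. Sult2a2 read 10.40, 11.85 and 7.62 in wild-type and 7.27, 14.55 and 7.46 in knockout. Sult2a4 read 8.78, 11.55 and 6.87 against 6.55, 14.30 and 6.46, and Sult2a6 read 9.05, 11.74 and 7.82 against 6.52, 14.93 and 6.96. On each of the 4 genes knockout 2 was 6.47-fold to 9.17-fold above wild-type 2, the next highest array. Against the mean log2 signal of the other 5 arrays, which is a geometric mean, knockout 2 was 49.5-fold to 91.5-fold higher. Sult2a3, detected on only 3 of the 6 arrays and not tested, read 9.34 on knockout 2, 5.37 on wild-type 2 and at most 2.70 elsewhere. Sult2a7 read 4.35, 4.18 and 2.11 against 3.57, 6.02 and 3.12, with knockout 2 again the highest.

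Over the 5 tested Sult2a genes the median difference between genotypes was 0.000018 with all arrays and -2.56 without knockout 2, when all 5 were lower. By pair the median was -2.39 in pair 1, 2.74 in pair 2 and -0.38 in pair 3. Xist was high on wild-type 2 and 3 and on knockout 2 and 3, and the part of sex in the Sult2a values was not tested. The gluconeogenic gene Pck1, one of the hepatocyte markers, was also highest on wild-type 2 and knockout 2, at 16.59 and 15.83, and lowest on knockout 1, at 11.91. Unlike the Sult2a genes, it was higher on knockout 3 (14.19) than on wild-type 1 (13.49). The hepatocyte markers as a list did not share this pattern: knockout 2 was the highest array for 3 of the 10 and the lowest for 3. Sult2b1, a cholesterol sulfotransferase encoded farther along chromosome 7, read 4.58, 4.78 and 5.67 against 5.26, 5.56 and 4.68 and was highest on wild-type 3.

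Of the Sult1 genes, 4 of 6 were tested. Sult1a1, the phenol sulfotransferase, read 15.28, 14.50 and 15.86 in wild-type and 14.74, 15.42 and 15.01 in knockout. The knockout arrays lay inside the wild-type range, and the mean was 15.21 ± 0.68 against 15.06 ± 0.34 (SD, n = 3 each), a difference of -0.16 ± 0.39 (SE). Sult1b1, which sulfates thyroid hormones, read 8.51, 8.66 and 7.17 against 8.74, 10.09 and 8.65. Wild-type 3 was low and knockout 2 high, as for the Ugt2 genes, and the difference was 1.05 ± 0.55. Sult1d1, which sulfates catecholamines in mouse, read 10.30, 10.68 and 10.77 against 10.09, 10.40 and 9.89. Knockout 1 and 3 lay below every wild-type array and knockout 2 did not. Its difference was -0.46 ± 0.25 and a second probe gave -0.53.

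Sult1c2 alternated between low and high arrays without regard to genotype, at 4.02, 7.04 and 6.99 in wild-type and 4.32, 9.74 and 4.0 in knockout. Sult1e1, the estrogen sulfotransferase, was not tested; it read 6.76 on wild-type 2 and 6.60 on knockout 2 and at most 4.25 elsewhere. Sult1c1 and Sult6b1 were also too dim, at no more than 1.79 and 3.92. Sult3a1, an amine sulfotransferase described in mouse, passed on the knockout arrays alone and read 7.01, 4.28 and 1.79 in wild-type and 6.31, 5.25 and 6.14 in knockout, a difference of 1.54 ± 1.21 (SE), with wild-type 2 and 3 below every knockout array. Sult5a1 read 9.59, 7.48 and 7.56 against 7.59, 7.11 and 7.43, so that wild-type 1 alone stood out and the difference was -0.83 ± 0.57. Sult4a1, a brain form, was between 5.92 and 6.44 on its brightest probe, with a difference of 0.28 ± 0.22. Dimmer probes of the same gene gave -0.44 and -1.28 but were detected on only 0 and 2 of the 6 arrays.

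Of the 13 tested Sult genes 8 were higher and 5 lower by value, Sult2a7 and Sult3a1 having passed on the knockout arrays alone, with a median of 0.0045, which turned to between -0.024 and -0.016 with quantile or median scaling. Without knockout 2, 3 were higher and 10 lower, with a median of -0.59. By comparison the median over the 14 Ugt genes was 1.01 with all arrays and 0.32 without knockout 2.

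**Figure D4:**
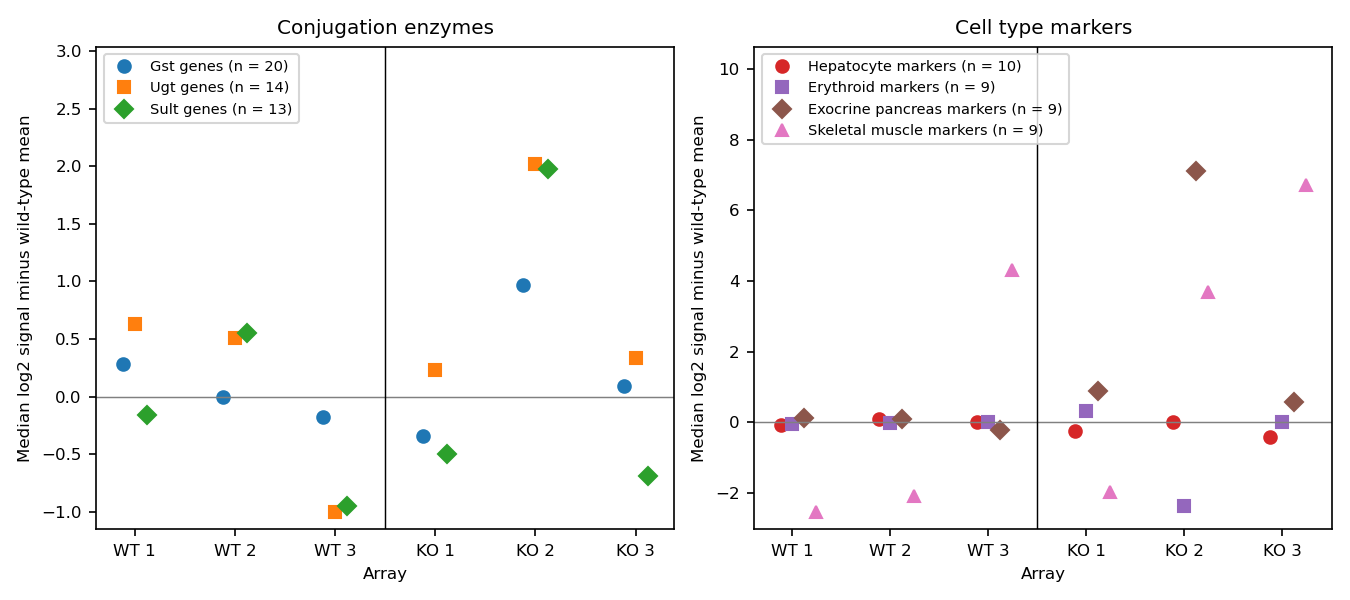
Left, the median log2 signal minus the wild-type mean of the tested Gst, Ugt and Sult genes on each array; right, the same for 4 lists of cell type markers. Knockout 2 has the highest median of all 3 enzyme families (0.97, 2.02 and 1.98) and is the array with high pancreas and low erythroid markers; the hepatocyte median stays within 0.41 of 0 on every array.

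On array knockout 2 the medians of the enzyme families and of the cell type markers were as follows. The median Gst, Ugt and Sult gene lay 0.97, 2.02 and 1.98 above the wild-type mean, while the median exocrine pancreas marker lay 7.11 above it and the median erythroid marker stood at -2.36. The median skeletal muscle marker lay 3.69 above it. For markers of hepatocytes, gut epithelium, cholangiocytes and liver macrophages the medians were 0.014, 0.13, 0.51 and 0.49. On wild-type 3, where the median Ugt2 gene was at -1.09 and the median Sult2a gene at -2.19 relative to the wild-type mean, muscle markers were high, with a median of 4.32 above the mean. Knockout 3 had still higher muscle markers, at 6.72, and a median Ugt2 gene at 0.48. The part of these markers in the enzyme values was not tested.

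The other genes of the conjugation pathway also gave no calls. Of 14 genes that supply cofactors, 0 passed the test, 10 were higher and 4 lower, with a median of 0.16, or 0.064 without knockout 2. Papss1, a synthase of the sulfate donor PAPS, read 9.11, 8.91 and 8.73 in wild-type and 9.38, 9.75 and 9.29 in knockout. All knockout arrays were above all wild-type arrays, by 0.56 ± 0.23 (SE), with adjusted p = 1.00 by limma. Gss, glutathione synthetase, was also separate between the groups, at 10.81, 10.52 and 10.79 against 10.91, 12.11 and 10.87, a difference of 0.59 ± 0.37, or 0.18 without knockout 2. Chac1, which degrades glutathione, differed by -1.67 ± 0.82, with overlapping groups.

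Among 21 enzymes of other conjugation and related reactions 11 were higher and 10 lower, none past the test, with a median of 0.06. Without knockout 2, 7 were higher and 14 lower, with a median of -0.36. Nqo1, a quinone reductase, read 7.74, 8.07 and 7.32 against 9.84, 8.63 and 8.0, a difference of 1.11 ± 0.49 (SE) with knockout 3 just inside the wild-type range. Nat1, an N-acetyltransferase, differed by 0.98 ± 0.41 at low signal. It had passed on the knockout arrays alone and was detected on only 1 wild-type array. Hpgds, a sigma-class glutathione S-transferase that makes prostaglandin D, was separate between the groups by 0.43 ± 0.24. Of 7 exporters of conjugates 4 were higher and 3 lower, with a median of 0.12, or 3 higher and 4 lower with a median of -0.019 without knockout 2. The smallest p-values were those of Abcc1 (-0.35 ± 0.35), Abcc6 (0.46 ± 0.63) and Abcg2 (-0.15 ± 0.27).

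Of 14 transcriptional regulators 5 were higher and 9 lower, with a median of -0.16 and 0 past the test. Nfe2l2, which encodes NRF2, the activator of antioxidant response elements, read 11.54, 12.01 and 12.28 in wild-type and 11.21, 11.06 and 10.64 in knockout. The genotypes were separate, and the difference was -0.97 ± 0.28 (SE), or -1.02 without knockout 2, with adjusted p = 1.00 by limma. Cebpa differed by 0.44 ± 0.31 and Cebpb by -0.79 ± 0.57, both with overlapping groups.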

How the data were processed

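Livers of 3 wild-type and 3 Cugbp1 knockout mice were measured on 1 array each. The intensity table the authors deposited is on a linear scale and covers 55681 probes, with 91 empty cells and without flags or background columns. The submitters' processing notes name Agilent Feature Extraction without a version. The authors also deposited values on the log2 scale; they were recovered within 0.01 for at least 99.96% of probes by quantile scaling, log2 and centring on probe medians, so their scale, centring and direction are known. Their column medians, in the order wild-type 1 to 3, knockout 1 to 3, were 0.005, 0.001, 0.004, 0.001, -0.011 and -0.011. They served as an alternative.

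Intensities were scaled to each array's 75th percentile, given a floor of 1 and turned to log2. A probe above the 30th percentile of its array counted as detected, and genes detected on all 3 arrays of either genotype were tested. Knockout was compared with wild-type over all 30924 features with limma 3.58.1 in R 4.3.3 (lmFit and eBayes), two-sided and without covariates, at a Benjamini-Hochberg adjusted p of 0.05, after the fit was tested on simulated data. Symbols of 3652 probes were brought up to date through a RefSeq gene table of GRCm38.p6, which matched all 52 members; 44 had an upstream window. The number of arrays limits the precision. Nothing says the replicates came from separate litters, so the p-values cover only the spread of these 6 arrays. With 1 array per liver, differences between mice and technical differences cannot be told apart in that spread.

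The members, lists and tests were chosen with earlier results of these data known. Genes described in full were the 4 markers Gsta3, Gstm1, Ugt2b5 and Sult1a1, the 10 members with the largest differences, the 10 with the smallest p-values, those with separate groups, the 2 brightest per subfamily, members whose probes disagreed, the 3 smallest p-values of each pathway list and Celf1; the other members, Try5, Alb, Tat, Pck1, Ddx3y and Xist are named after their values were seen. After removal of group means, same-numbered arrays correlated across features at 0.36, 0.26 and 0.29, so the numbers given in the labels were taken to pair the arrays, and an alternative fit had this number as a block. The others were quantile, median and no scaling, the detection filter, the floor, the mean of all probes of a gene, array weights and leaving out each array.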

Additional observations from a re-analysis of the deposited data

How the results depend on the processing

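These data give levels and not calls for the conjugation enzymes. There were 3 arrays per genotype, and 1 array, knockout 2, carried pancreas transcripts. What part that array played in the absence of calls was not tested. No member passed the adjusted threshold by limma under any of the 16 alternatives run, including the replicate block fit, which called 0 of all features and changed no other call. Features called numbered 1 in the reported fit, 2 with median scaling or detection above the 50th percentile, 11 with array weights, 0 without the filter on dim probes, with a floor of 16 or with the mean of all probes of a gene, and 0 to 1 with any array left out. Members at an unadjusted p under 0.05 numbered 0 to 5. The count over all features is given above only for the reported fit and the replicate block fit. The median of the Sult genes turned to -0.024 with quantile scaling, -0.016 with median scaling and -0.025 in the deposited values. It was -0.068 with detection above the 50th percentile and -0.57 with array weights. With 1 array left out it ran from -0.59 to 1.01. The medians of the Gst, Ugt and all tested members kept their sign under every alternative. Over the 44 members detected on all 6 arrays, however, the median without knockout 2 was -0.003. The genes described in full turned sign as follows. With quantile scaling Gstp2 was 0.074, Gstt1 0.064 and Sult2a1 -0.024, and in the deposited values 0.074, 0.064 and -0.025. Without scaling Gstp1 was 0.033, Gstp2 0.018, Gstt1 0.11 and Gstt2 0.099; with median scaling Sult2a1 was -0.021. With the mean of all probes Sult4a1 was -0.48 and Ugt1a10 0.014. The Sult4a1 mean includes probes detected on only 0 and 2 of the 6 arrays. With array weights Gstk1 was -0.15, Gstm5 0.17, Gstt1 0.097, Gstz1 -0.033, Sult2a1 -2.45 and Ugt2b34 -0.098. With each array left out in turn the ranges were -0.33 to 0.74 for Gstk1, -0.36 to 0.26 for Gstm5, -0.82 to 0.20 for Gsto2, -0.52 to 0.28 for Gstp1, -0.38 to 0.20 for Gstp2, -0.20 to 0.25 for Gstt1, -0.50 to 0.32 for Gstt2, -0.51 to 0.17 for Sult1a1, -2.56 to 1.28 for Sult2a1, -2.59 to 1.05 for Sult2a2, -1.04 to 0.38 for Ugt1a10 and -0.61 to 0.15 for Ugt3a1. Of the other tested members, these turned without knockout 2: Gsta2 (-0.64), Gstm2 (0.14), Gstm6 (-0.21), Gstt3 (-0.53), Sult1c2 (-1.86), Sult2a4 (-2.56), Sult2a7 (-0.20), Sult2b1 (-0.031) and Ugt2a1 (-0.12); their other alternatives are not given. The cause was not tested. Without flags, signal over background is unknown, and values of the dimmest genes have no reliable order.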
